A study of Homo sapiens with 12 samples.

Results

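The long arm of chromosome 8 was examined as a row of neighbouring genes in the human prostate cancer cell lines DU145 and PC3 and in a docetaxel-resistant subline of each. The members were the protein-coding genes of chromosome 8 that start between positions 53800000 and 144900000 (GRCh38) and have a mean of at least 2 FPKM (fragments per kilobase of gene, scaled to the size of the library) over the 12 libraries. They were therefore chosen by measured values. Of the 38611 genes in each table, 901 started in this segment, 366 of these were protein-coding and 235 reached the threshold. NDRG1, SQLE, HEY1, KIFC2, CCNE2 and HSF1 were left out by name, which left 229 members running from RGS20 to ZNF250. All 229 passed the filter on low counts and were tested.

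DU145 came from a brain metastasis and PC3 from a bone metastasis of prostate carcinoma. The taxane docetaxel binds microtubules, keeps them from disassembling and stops cell division. Resistance was selected by raising the dose, starting from 10 for DU145 and 0.5 for PC3, and the final half-maximal inhibitory concentration was 1800 for DU145 and 15 for PC3. These are in nm/ml as the labels write it, a unit whose meaning is not stated. All 4 groups (parental DU145, resistant DU145, parental PC3 and resistant PC3) had 3 libraries, and each resistant subline is 1 selected population. Nothing in the labels says that the 3 libraries of a group were grown as separate cultures, so a p-value here reflects only how far these samples scatter, and that scatter may be technical.

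The segment holds MYC, a transcription factor that drives growth and ribosome production, and extra copies of this arm are a frequent finding in advanced prostate cancer. Its other genes have unrelated roles, among them the cohesin subunit RAD21, the translation factors EIF3H and EIF3E, the adaptor YWHAZ and the ribosomal proteins RPL7, RPL8 and RPL30. When neighbouring genes with unrelated roles move together, the movement is called regional. The number of DNA copies was not measured here.

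Library totals lay between 62513103 and 72530254 counts. The epithelial genes KRT8, KRT18 and EPCAM were present in all 4 groups, at 63.8 to 710.3, 154.6 to 580.6 and 6.89 to 49.7 CPM (counts divided by the scaled library total, times 1000000). The leukocyte gene PTPRC and the endothelial gene VWF did not exceed 0.192 and 0.389 CPM in any library, the smooth muscle gene ACTA2 did not exceed 1.52 CPM, and CTNNA1, known to be lost in PC3, lay at 2.17 to 3.45 CPM there against 372 to 527 CPM in DU145. Other marker genes differed between groups: COL1A1 fell in PC3 from a range of 96.5 to 107.3 CPM to one of 10.3 to 13.2 CPM, and the endothelial gene PECAM1 lay at 17.6 to 29.9 CPM in PC3. The share of counts from the mitochondrial genome rose in DU145 from 3.98 to 4.30% in parental to 7.04 to 7.14% in resistant libraries, and the share in PC3 was 5.68 to 6.04% in parental and 3.46 to 3.55% in resistant libraries. The part of these values in the results was not tested. In bulk RNA, fewer cells of a type and less RNA per cell cannot be told apart.

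In DU145, expression over the whole segment was lower in the resistant subline. Of the 229 members, 160 fell and 28 rose at an adjusted p under 0.05 (edgeR's quasi-likelihood test), and 41 were not called, where 20.7% of all 24128 genes tested fell and 18.9% rose. The median log2 change of the members was -0.52 (interquartile range -0.82 to -0.15), a 1.43-fold lower level. The 9729 protein-coding genes of other chromosomes that reached 2 FPKM had a median of -0.05, with 35.8% lower and 29.6% higher. Most of the falls were moderate: 154 members lay between -1 and 0, and 30 were called with a fall of at least 1 log2 unit.

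The shift was visible in every library. Members supplied 3.20%, 3.21% and 3.19% of the counts of the 3 parental DU145 libraries and 2.25%, 2.25% and 2.23% of the resistant ones. In PC3 the shares were 2.94%, 2.93% and 2.91% in parental and 3.02%, 3.04% and 3.05% in resistant libraries. These are shares of all counts, mitochondrial ones included. By this measure resistant DU145 libraries lay below the parental ones without overlap, and resistant PC3 libraries slightly above theirs. Measured as the median over members of the log2(CPM + 1) difference from the parental mean, less the same median over other chromosomes, the resistant DU145 libraries lay between -0.47 and -0.42 and the parental ones within 0.005 of 0. The corresponding resistant PC3 libraries lay between -0.045 and -0.014 and the parental ones within 0.007 of 0. By this second measure resistant PC3 libraries thus lay slightly below theirs, the reverse of the count shares.

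**Figure D1:**
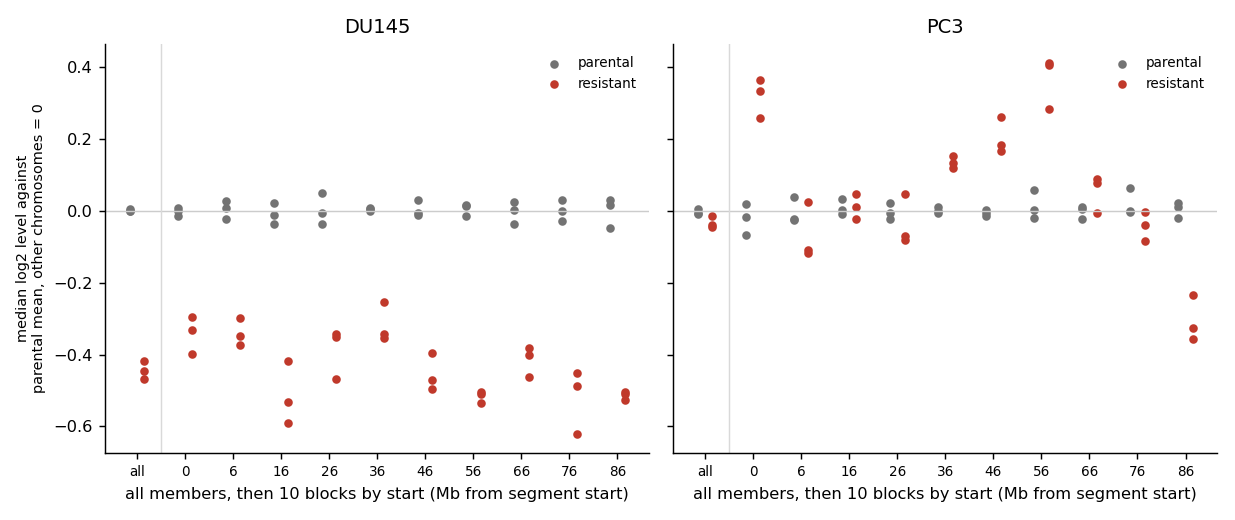
Median level of the members in each library (1 point per library), as log2(CPM + 1) against the parental mean of the same line and with other chromosomes set to 0, for all members and for 10 blocks along the segment. Resistant DU145 libraries lie below the parental ones in all 10 blocks, while those of PC3 lie above in the first block and below in the last.

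The DU145 median of the segment was below that of every other chromosome taken whole, and segments of like size on other chromosomes were not compared. The medians of expressed protein-coding genes on the other 22 chromosomes ranged from -0.34 on chromosome 3 (582 genes) to 0.60 on chromosome 13 (158 genes), and 0 of them lay below that of the members. Genes farther away on chromosome 8 went the other way: of 124 expressed genes that start below 45 Mb, 70 rose and 12 fell, with a median of 0.27. Between 45 Mb and the start of the segment, 6 of 9 genes fell and 2 rose, and their median was -0.37. ZNF16 and C8orf33, which start just beyond the segment, both fell, by 0.36 and 0.71 on the log2 scale. In PC3 the member median of 0.03 stood in the midst of the chromosomes, 8 of which were lower, and the genes below 45 Mb had a median of 0.54, with 87 higher and 13 lower of 124.

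**Figure D2:**
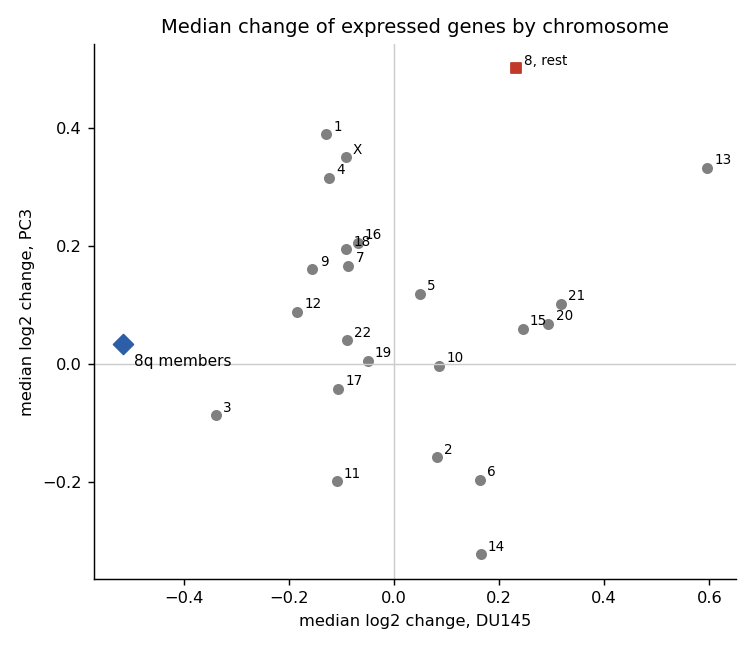
Median log2 change, resistant minus parental, of the expressed protein-coding genes of each chromosome in DU145 (x axis) and PC3 (y axis), with the 8q members as a diamond and the rest of chromosome 8 as a square. The members have the lowest median in DU145, at -0.52, and lie near 0 in PC3.

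By block and running median, the DU145 shift kept its direction along the arm, while its size varied. When the segment was divided into 10 blocks, block medians ranged from -0.60 (80 to 90 Mb) to -0.35 (90 to 100 Mb), and all 10 were below 0. The running median over 15 neighbouring members was below 0 in all 215 windows. It was lowest, at -0.85, from MROH1 to LRRC14 at 144.1 to 144.5 Mb, and highest, at -0.17, from KCNQ3 to LY6E at 132.1 to 143.0 Mb. The longest stretch of neighbours below 0 held 21 members, from the triglyceride synthesis enzyme DGAT1 to the zinc finger gene ZNF250, with a median of -0.84. Within it lay the longest stretch called lower at every member, 11 genes from VPS28 to RPL8. Called rises never stood more than 2 in a row, as RRS1 and MYBL1 or MYC and CYRIB did, and the risers were scattered among genes that fell.

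The ends of that stretch show the size of the shift. VPS28, a subunit of the ESCRT-I complex that sorts membrane proteins to lysosomes (144.42 Mb), had 77.9, 85.0 and 81.5 CPM in parental and 38.7, 33.7 and 40.4 CPM in resistant DU145. RPL8, a protein of the large ribosomal subunit (144.79 Mb), had 1314, 1362 and 1314 CPM in parental and 900.9, 890.4 and 944.2 CPM in resistant DU145. The groups did not overlap for either gene, and the falls were 1.11 ± 0.07 (SE) and 0.54 ± 0.05 on the log2 scale, with edgeR adjusted p of 6.44e-09 and 2.2e-07. In PC3, VPS28 fell by 0.26 ± 0.07 and RPL8, at -0.10 ± 0.05, was not called (adjusted p 0.125).

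**Figure D3:**
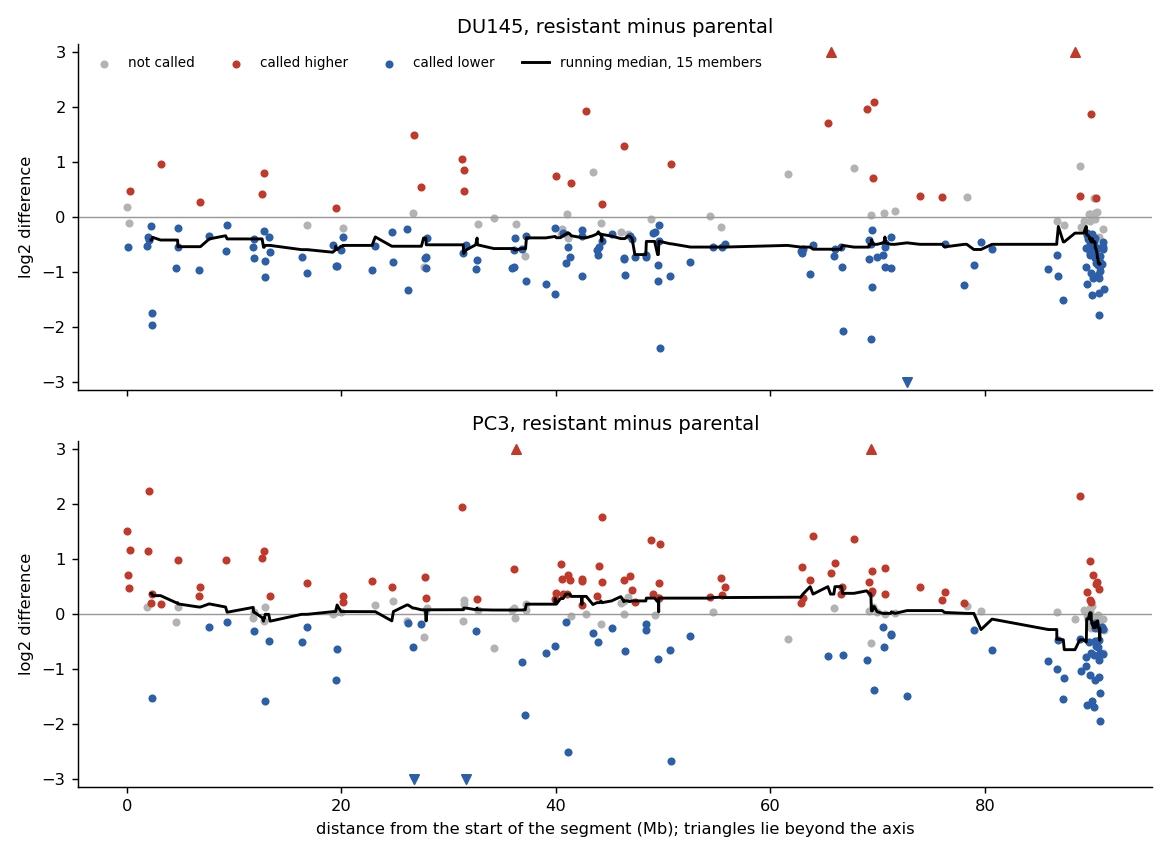
Log2 change, resistant minus parental, of each of the 229 members (points) against its distance from the start of the segment in Mb, for DU145 (upper panel) and PC3 (lower panel), with the running median over 15 members as a line. The line stays below 0 in DU145, between -0.85 and -0.17, and in PC3 runs from above 0 to its lowest value, -0.66, near the far end.

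The choice of members bears on these counts, because a gene that passed the threshold only through the group where it is high had to differ. Of the 229, 179 reached 2 FPKM in all 4 groups and 50 did not. Among the 179, 138 fell and 16 rose in DU145, with a median of -0.54. Among the 50, 22 fell and 12 rose, with a median of -0.34. The 126 protein-coding genes of the segment under the threshold gave no such picture: 94 of them could be tested, 16 fell, 18 rose and the median was 0.00. Just inside the threshold stood MMP16 (mean 2.04 FPKM), TRPS1 and C8orf88 (both 2.23 FPKM), with DU145 changes of -0.01, 0.78 and -0.71, and just outside it SYBU (1.96 FPKM), CRISPLD1 (1.85 FPKM) and PTP4A3 (1.84 FPKM), with -2.14, 3.04 and 0.27. Split into 4 equal classes by mean FPKM, the members had DU145 medians of -0.36, -0.58, -0.56 and -0.45 from the lowest to the highest class.

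Overlapping genes could share reads, since the strand setting of the counting is not given in the sources used here. This concerns 151 of the 229 members, including ASPH, CA2, CCN3, DENND3, FABP4, FAM83A, IQANK1, LRATD2, LY6K, LYN, MAL2, MMP16, PABPC1, PARP10, PLEC, PPP1R16A, RAD21, RIMS2, RPL7, RPL8, RPL30, SNTB1, TCEA1, TP53INP1, TRPS1, ZFPM2, ZHX2 and ZNF704. Their values are uncertain for that reason, as are those of ribosomal protein genes, PABPC1 and YWHAZ, which have near-identical pseudogene copies. The 78 members that overlap no other gene had a DU145 median of -0.50, with 53 lower and 12 higher.

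Grouped by role, every one of 8 lists had more falls than rises in resistant DU145. Their counts are to be read against the whole segment, in which 69.9% of members fell and 12.2% rose in DU145. In PC3, 33.2% of members fell and 37.55% rose. Of all genes tested, 20.7% fell and 18.9% rose in DU145, and 21.6% fell and 22.4% rose in PC3. Nothing particular to a role was tested in either line. The lists overlap, and 61 members are on none. They also hold genes whose known role is broader than the list's name or lies outside it. Examples are the hydroxylase ASPH and the phosphatase subunit PPP1R16A among the protein quality control genes, and the transcription factor PLAG1 among the signalling genes. Others are VIRMA and RIPK2 in the replication list, PHF20L1 in the cytoskeleton list and SCRIB in the transcription list. The counts per list include such genes. Members on no list had 35 falls and 9 rises of 61, with a median of -0.52.

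Of 34 genes of transcription and chromatin, 25 fell and 5 rose in DU145 (median -0.50), and in PC3 7 fell and 13 rose (median 0.02). TCEA1, the elongation factor that releases stalled RNA polymerase II (53.97 Mb), had 532.1, 526.4 and 510.4 CPM in parental and 367.0, 344.2 and 366.6 CPM in resistant DU145. It fell by 0.54 ± 0.09 in DU145 and rose by 0.71 ± 0.09 in PC3, where parental libraries had 45.7, 39.2 and 39.7 CPM and resistant ones 57.2, 70.7 and 76.2 CPM. The lines thus moved in opposite directions, from levels that differed 12.6-fold between the parental lines.

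Unlike most members of the segment, MYC and the next member, CYRIB, rose in DU145. For MYC, parental DU145 libraries had 78.1, 78.7 and 78.8 CPM and resistant ones 99.6, 106.3 and 100.9 CPM, a rise of 0.38 ± 0.05 (adjusted p 2.92e-05). Parental PC3 libraries had 93.5, 105.0 and 97.2 CPM and resistant ones 129.4, 145.5 and 138.8 CPM, a rise of 0.48 ± 0.05 (adjusted p 1.68e-06). The groups did not overlap in either line, and the 2 rises did not differ beyond their error (difference 0.10 ± 0.08, adjusted p 0.316). ZHX2, a homeodomain repressor of transcription (122.78 Mb), had the largest change of this list in DU145. It was at 4.05, 5.39 and 3.71 CPM in parental and 15.4, 19.4 and 16.8 CPM in resistant DU145, a 3.92-fold rise, and fell 1.80-fold in PC3.

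In the list of ribosome, translation and RNA binding, 15 of 23 fell and 2 rose in DU145 (median -0.19), and 4 fell and 13 rose in PC3 (median 0.20). Its abundant members went different ways. RPL7 (mean 329.0 FPKM) rose by 0.17 ± 0.04 in DU145, RPL30 (132.7 FPKM) at -0.10 ± 0.09 was not called, and PABPC1, which binds the poly(A) tail (143.1 FPKM), fell by 0.35 ± 0.04. PABPC1 had 1253, 1303 and 1259 CPM in parental and 2021, 1978 and 2106 CPM in resistant PC3, a rise of 0.68 ± 0.04. The largest called change of the list in DU145 was the fall of ZNF706 (-0.72 ± 0.06), a zinc finger gene, and that in PC3 was the rise of MRPL15, a mitochondrial ribosomal protein (1.15 ± 0.13).

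All 23 genes of ubiquitin and protein quality control were called in DU145, 20 lower and 3 higher (median -0.59), and 12 fell and 2 rose in PC3 (median -0.19). The 3 risers were NTAQ1, FBXO43 and FBXO32. FBXO32, the F-box subunit that targets proteins for degradation in wasting muscle (123.50 Mb), had 3.01, 1.38 and 2.09 CPM in parental and 9.79, 9.86 and 8.18 CPM in resistant DU145, a rise of 2.10 ± 0.22 (adjusted p 2.34e-06). Its PC3 libraries went from 43.1, 42.6 and 47.6 CPM to 19.3, 18.0 and 13.6 CPM, a fall of 1.39 ± 0.20 (adjusted p 4.23e-05). The parental lines stood far apart, and the resistant lines were closer together. ASPH, the most abundant gene of this list, fell in both lines, by 0.34 ± 0.03 and 0.24 ± 0.03.

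Of 19 genes of replication, repair, cohesin and cell cycle, 14 fell and 2 rose in DU145 (median -0.58), whereas 3 fell and 11 rose in PC3 (median 0.35). RAD21, the cohesin subunit that separase cleaves (116.85 Mb), had 566.0, 549.5 and 536.1 CPM in parental and 359.8, 375.4 and 363.8 CPM in resistant DU145. In PC3 it had 380.5, 397.2 and 385.0 CPM in parental and 490.4, 464.3 and 469.6 CPM in resistant libraries. The fall of 0.59 ± 0.04 and the rise of 0.29 ± 0.04 each separated the groups completely. FBXO43, an inhibitor of the anaphase-promoting complex, rose in both lines, 2.47-fold and 1.52-fold. TP53INP1, a target of p53 that promotes cell death (94.93 Mb), was not called in DU145 (-0.38 ± 0.19, adjusted p 0.137) and fell in PC3 from 52.9, 61.2 and 59.9 to 9.73, 9.12 and 11.6 CPM, a 5.71-fold change.

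Signalling genes and adaptors had 20 falls and 2 rises of 25 in DU145 (median -0.50), and 5 falls and 14 rises in PC3 (median 0.28). YWHAZ, a 14-3-3 adaptor that binds phosphorylated proteins (100.92 Mb), had 1517, 1464 and 1431 CPM in parental and 1117, 1127 and 1120 CPM in resistant DU145, and 1291, 1291 and 1305 CPM against 1789, 1730 and 1743 CPM in PC3. It fell by 0.39 ± 0.03 in DU145 and rose by 0.44 ± 0.03 in PC3. CCN3, a secreted matricellular protein (119.42 Mb), rose most among these in DU145, from 2.99, 2.66 and 2.95 to 33.7, 29.4 and 28.7 CPM (3.42 ± 0.15, adjusted p 3.66e-11). In PC3 it rose from 11.0, 15.8 and 16.3 to 24.0, 23.8 and 24.1 CPM (0.74 ± 0.13). LYN, a kinase of the Src family (55.88 Mb), had 160.8, 148.4 and 157.5 CPM in parental and 115.1, 116.4 and 117.9 CPM in resistant DU145, a 1.34-fold fall. In PC3 it rose 4.72-fold, from 4.57, 3.59 and 5.27 to 20.8, 20.8 and 21.9 CPM, still below every DU145 library. PTK2, the focal adhesion kinase, was named after its values were seen: it fell by 1.07 in DU145 and 0.47 in PC3.

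**Figure D4:**
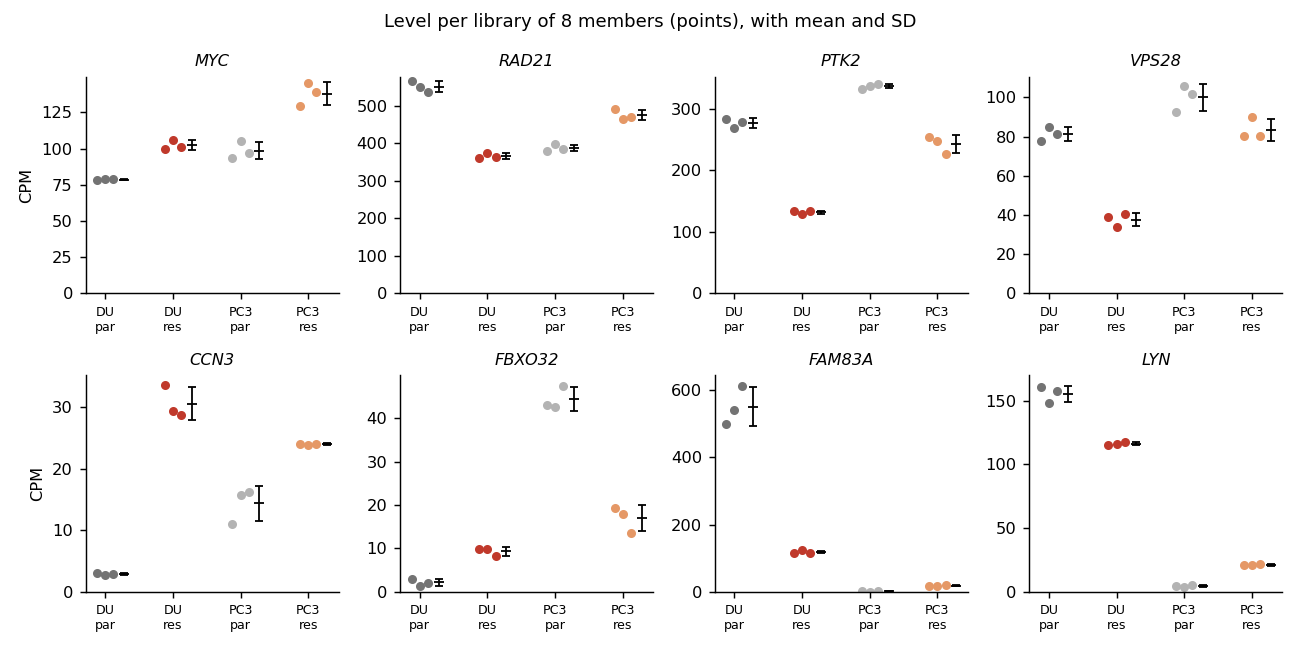
CPM in each library (points) with mean and SD (n = 3) for 8 members in parental (par) and resistant (res) DU145 (DU) and PC3, each panel on its own axis from 0. MYC and CCN3 are higher in both resistant lines, PTK2 and VPS28 lower in both, RAD21, FAM83A and LYN lower in resistant DU145 and higher in resistant PC3, and FBXO32 the reverse.

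Of 21 genes of membrane traffic, 19 fell and 2 rose in DU145, with a median of -0.57 beside -0.52 for all members, and 10 fell and 4 rose in PC3 (median -0.02). TRAM1, which helps nascent chains into the endoplasmic reticulum (70.57 Mb), fell from 584.8, 554.2 and 515.6 to 262.2, 283.5 and 267.9 CPM in DU145 (2.03-fold) and by 0.25 ± 0.04 in PC3. The 2 risers were MAL2, a proteolipid of transcytosis, and the peptidase CPQ. MAL2 (119.17 Mb) had 14.1, 14.4 and 15.2 CPM in parental and 49.2, 48.3 and 45.5 CPM in resistant DU145, and fell in PC3 from 533.0, 524.8 and 596.0 to 333.6, 331.4 and 307.9 CPM. CPQ rose 3.80-fold in DU145 from under 1 CPM, and its PC3 change of 0.00 ± 0.22 was not called. EXT1, a polymerase of heparan sulfate, fell by 0.52 ± 0.04 in DU145 and rose by 1.41 ± 0.04 in PC3.

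Among 35 genes of mitochondria and metabolism, 24 fell and 5 rose in DU145 (median -0.44), and 8 fell and 18 rose in PC3 (median 0.25). CYC1, cytochrome c1 of respiratory complex III (mean 99.4 FPKM), fell by 0.38 ± 0.06 in DU145 and was not called in PC3 (-0.07 ± 0.06). CHCHD7, a protein of the mitochondrial intermembrane space, fell 3.35-fold in DU145, from 183.8, 193.0 and 199.3 to 58.9, 56.2 and 56.7 CPM. CA2, a cytosolic carbonic anhydrase (85.46 Mb), had 0.340, 0.328 and 0.499 CPM in parental PC3 and no counts in the resistant libraries, a level at least 25.9-fold lower if 3 counts over the group are taken as the floor. That change concerns a level near 0, whereas in DU145 CA2 fell from 31.3, 29.4 and 31.7 to 18.6, 23.2 and 23.3 CPM.

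The last list, cytoskeleton, adhesion and cell surface, had 12 falls and 2 rises of 18 in DU145 (median -0.54), and 7 falls and 8 rises in PC3 (median 0.10). PLEC, the plectin linker of intermediate filaments (143.92 Mb), had 2219, 2285 and 2242 CPM in parental and 1029, 1080 and 1020 CPM in resistant DU145. In PC3 it went from 1557, 1475 and 1619 to 2520, 2470 and 2578 CPM. The fall was 2.16-fold and the rise 1.63-fold, with no overlap in either line. SNTB1, a syntrophin of the dystrophin complex, fell 4.21-fold in DU145 and 1.69-fold in PC3. The 2 risers were MAL2 and TSNARE1, a SNARE-domain gene with no counts in parental DU145 and 3.10, 4.78 and 4.56 CPM in resistant DU145, at least 278-fold higher with the same floor of 3 counts.

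Some single members moved far beyond the regional shift in DU145. LRATD2 (126.55 Mb) fell most, from 41.8, 38.1 and 46.1 to 1.94, 1.68 and 1.59 CPM, 24.1-fold lower (-4.59 ± 0.12, adjusted p 3.14e-13). RIMS2, which organises vesicle release sites, fell 5.20-fold, PLAG1 3.90-fold, PPP1R16A 3.43-fold and DENND3, an exchange factor for a Rab protein, 2.85-fold. IQANK1 and the zinc finger gene ZNF704 were among the largest rises, at 3.68-fold and 2.82-fold. FAM83A, which links EGF receptor signalling to the MAPK pathway (123.18 Mb), had 498.1, 541.7 and 613.0 CPM in parental and 116.1, 123.0 and 115.3 CPM in resistant DU145, a 4.66-fold fall. FAM83A also had the largest rise of the segment in PC3, from 1.26, 0.421 and 0.952 to 17.9, 17.3 and 19.0 CPM (4.35 ± 0.21, adjusted p 3.34e-08). It stayed below every DU145 library.

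PC3 showed no shift of the segment as a whole. There, 86 members rose, 76 fell and 67 were not called, where 22.4% of all genes tested rose and 21.6% fell, and the median change was 0.03 (interquartile range -0.43 to 0.37). Other chromosomes' expressed genes had a median of 0.06, with 39.6% higher and 31.4% lower. Block medians differed in direction along the arm instead, and blocks of other chromosomes were not compared. Changes of adjacent members correlated at 0.06 in PC3 (228 pairs), within the range of the other 22 chromosomes (0.02 to 0.22). In DU145 that correlation was 0.07, against -0.21 to 0.40 on the other chromosomes. Up to 60 Mb, 10 of 14 members rose and 1 fell (median 0.41), and from 110 to 120 Mb 7 of 10 rose and 1 fell (median 0.45). Beyond 140 Mb, 32 of 63 fell and 9 rose (median -0.26), the only block with a median below 0. With other chromosomes set to 0, the per-library levels of the first and last blocks separated without overlap. Resistant PC3 libraries lay at 0.26 to 0.37 in the first, against -0.07 to 0.02 in parental, and at -0.36 to -0.24 in the last, against -0.02 to 0.02. The blocks from 90 to 120 Mb also separated, with resistant libraries higher. From 130 to 140 Mb resistant libraries were lower, at -0.084 to -0.004 against -0.002 to 0.064. In the remaining blocks the groups overlapped.

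Running medians in PC3 ranged from -0.66 (ST3GAL1 to GLI4, 133.5 to 143.3 Mb) to 0.49 (UTP23 to TBC1D31, 116.8 to 123.0 Mb), with 147 windows above 0 and 68 below. Over the 78 members that overlap no other gene the lowest was -0.26. The longest called stretches held 5 members each. One, lower in resistant PC3, ran from PARP10, a mono-ADP-ribosyltransferase, to GPAA1, a subunit of the enzyme that attaches GPI anchors, at 144.0 to 144.1 Mb. The other, higher, ran from EIF3H to EXT1 at 116.6 to 117.8 Mb and includes RAD21. PARP10 fell from 70.0, 64.6 and 82.7 to 20.4, 23.0 and 23.4 CPM, and GPAA1 from 142.7 ± 2.05 to 127.0 ± 4.77 CPM (SD, n = 3). The groups did not overlap for either gene, but the fall was 3.25-fold for PARP10 and 1.12-fold for GPAA1.

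Large single changes in PC3 went both ways. CALB1, the calcium-binding protein calbindin (90.06 Mb), rose 9.61-fold, from 87.1, 78.3 and 94.1 to 838.4, 826.7 and 828.2 CPM, and in DU145 stayed between 0.901 and 1.51 CPM. The centrosomal gene LRRCC1 rose 3.82-fold, POP1, a protein of RNases P and MRP, 3.37-fold and RGS20, a regulator of G protein signalling, 2.86-fold. LY6K, a surface protein with a GPI anchor, had 0.414, 2.32 and 0.00 CPM in parental and 2.56, 4.32 and 5.11 CPM in resistant PC3 (2.14 ± 0.72, adjusted p 0.0396). That call was lost in 13 alternatives, among them the fit with the replicate block, which gave an adjusted p of 0.0736, and the fits without any 1 library other than parental PC3 replicate 2 or resistant PC3 replicate 1 (0.0568 to 0.129). Without parental PC3 replicate 2 the rise was 4.23 instead of 2.14.

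Of the falls, ZNF704 had the clearest, from 79.2, 76.3 and 83.2 to 4.57, 4.62 and 5.91 CPM, 15.8-fold lower (adjusted p 1.79e-13), although it rose in DU145. ZFPM2, a cofactor of GATA factors (104.59 Mb), went from 58.9, 66.8 and 58.6 to 10.2, 7.28 and 11.0 CPM, 6.45-fold lower, and rose 1.96-fold in DU145 from about 3 CPM. Near the far end, the transporter gene MFSD3 fell 3.85-fold and RHPN1 3.18-fold, and both also fell in DU145, 1.97-fold and 2.33-fold. C8orf88 lay below 1 CPM in all PC3 libraries, and its fall of 1.85 ± 0.42 was lost when only the PC3 libraries were fitted (adjusted p 0.0654) and with limma on log2(FPKM + 1) (0.0514).

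The resistant-minus-parental comparisons of the 2 lines share no library. In DU145 and PC3, 54 members fell in both, which is 33.8% of the 160 that fell in DU145 and 71.1% of the 76 that fell in PC3. These shares are close to those over all members, of which 33.2% fell in PC3 and 69.9% in DU145. Another 58 fell in DU145 and rose in PC3, 8 rose in DU145 and fell in PC3, and 13 rose in both. Of the 133 called in both lines, 67 (50.4%) went the same way, where this held for 3243 of 6163 (52.6%) of all genes called in both. DENND3 fell alike, from 174.3, 179.7 and 180.0 to 61.0, 64.5 and 61.9 CPM in DU145 and from 205.7, 206.4 and 213.7 to 70.1, 73.6 and 70.9 CPM in PC3, and the changes differed by -0.03 ± 0.06 (adjusted p 0.708).

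Tested directly, the change in PC3 was higher than that in DU145 for 148 members and lower for 35, where 22.1% and 20% of all genes tested were higher and lower. Other chromosomes' expressed genes had a median difference of 0.12, with 39.3% higher and 29.1% lower. The members' median difference was 0.51, below that of chromosome 4 (0.53) and above those of 21 of the other 22 chromosomes. All 10 blocks lay above 0, from 0.30 to 0.85. The median difference was smallest in the last block, beyond 140 Mb, where 30 of 63 were higher and 14 lower. The longest called stretch held 13 members, from POLR2K to FZD6 at 100.2 to 103.3 Mb, with a median of 0.75.

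The parental lines already differed strongly at the proximal end of the segment. In parental PC3, 111 members were higher than in parental DU145 and 81 lower, where 30.9% and 29.5% of all genes tested were, and the median difference was 0.11. Of expressed genes on other chromosomes, 41% were higher and 42% lower, with a median of -0.01. Medians of whole other chromosomes ran from -0.86 (chromosome 9) to 0.82 (chromosome 20). All 14 members up to 60 Mb were lower in PC3 (median -2.86), as were 13 of 15 from 60 to 70 Mb (median -1.05). The first 18 members in a row, RGS20 to GGH at 53.9 to 63.0 Mb, were called lower, with a median 6.87-fold difference, and the first 31, up to TRAM1, lay below 0. Among the 18, RGS20, TMEM68, TGS1, LYN, PLAG1, CHCHD7 and CHD7 lay under 2 FPKM in parental PC3 and passed the threshold through other groups. These counts and the median are therefore partly fixed by the choice of members. The rest of the 18 reached 2 FPKM in all 4 groups and were 2.07-fold (ASPH) to 12.6-fold (TCEA1) lower. The genes from 45 Mb to the segment had a median of -1.12 (7 of 9 lower), and those below 45 Mb one of -0.40 (76 of 124 lower). Parental PC3 had 5.05 to 6.22 CPM of CHCHD7 and 4.17 to 5.37 CPM of PLAG1, against 183.8 to 199.3 and 91.3 to 100.6 CPM in parental DU145. Neither gene overlapped between the lines, but both reached the mean of 2 FPKM only through DU145 and so had to differ.

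At the distal end the order was the reverse. Beyond 140 Mb, 44 of 63 members were higher in parental PC3 and 9 lower (median 0.50), with 14 in a row from FBXL6 to ZNF251 called higher (median 2.20-fold). PPP1R16A, for example, had 177.5, 175.8 and 196.9 CPM in parental PC3 and 80.5, 85.2 and 85.2 CPM in parental DU145. The running median was lowest, at -2.92, at the proximal end and highest, at 1.14, near the distal end, with no steady rise between them. It lay below 0 in 80 of 215 windows, and the blocks from 80 to 90 Mb (median -0.56, 12 of 21 lower) and from 110 to 120 Mb (median -0.44, 7 of 10 lower) were again below 0.

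**Figure D5:**
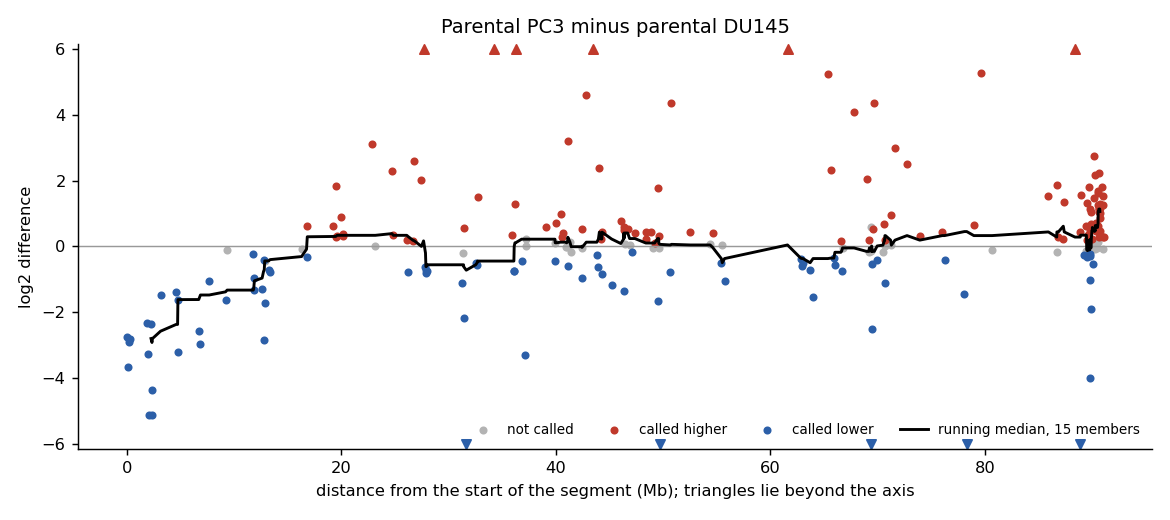
Log2 difference, parental PC3 minus parental DU145, of each member (points) against its distance from the start of the segment in Mb, with the running median over 15 members as a line. The line starts near -2.92, first crosses 0 between TRAM1 and LACTB2, falls below 0 again in later stretches and is highest, at 1.14, near the far end.

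The largest single differences between the parental lines are given as a description, because genes at almost no level in 1 line reached the mean of 2 FPKM only through the other and so had to differ. Higher in PC3 were TSPYL5, at 126.7 to 134.5 CPM against 0.0578 to 0.169 CPM in DU145, the metalloprotease gene MMP16, at 59.6 to 61.7 against 0.00 to 0.361 CPM, the fatty acid binding protein gene FABP4, at 7.35 to 12.7 against 0.00 to 0.116 CPM, and the GATA-type repressor gene TRPS1, at 52.6 to 59.4 against 0.361 to 1.17 CPM. TSNARE1, at 19.2 to 26.1 CPM in parental PC3, had no counts in parental DU145, a difference of at least 1522-fold. Lower in PC3 were FAM83A (623-fold), the potassium channel gene KCNQ3 (429-fold), RIMS2 (199-fold), LY6K (110-fold, with a log2 difference of -6.79 that became -8.89 without parental PC3 replicate 2) and CA2 (78.9-fold). Among the 179 members at 2 FPKM or more in all 4 groups, 84 were higher in parental PC3 and 61 lower, with a median of 0.09.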

How the data were processed

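The authors deposited 1 table per library, giving read counts and FPKM per gene, per the file headers. Among the tools in the submitters' processing notes are HISAT2 2.0.4, StringTie 1.3.4d and cutadapt 1.9, and the build named there is hg18. The coordinates match GRCh38 instead: 228 of 229 members were found in GENCODE 29, 228 of them overlapping their gene there and 70 with the same start and end. For the read counting, neither program nor strand setting is given in the sources used here.

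Counts were filtered with filterByExpr (24128 genes kept), scaled by TMM and fitted with edgeR 4.0.16 in R 4.3.3, with 1 mean per group over all 12 libraries (8 residual degrees of freedom). Contrasts were tested two-sided with the quasi-likelihood test and p-values adjusted by Benjamini-Hochberg over all genes tested. A change was called at an adjusted p under 0.05. The standard error is the log2 change divided by the square root of F. Fold changes come from the fit. On counts simulated for the DU145 comparison over 24128 genes, 67% of 100 genes changed by 1 log2 unit and 48% of 100 changed by 0.5 were called.

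Pairs of libraries within a group had a mean chi-square per gene of 15.9 to 46.3, where independent counting of 1 library would give about 1, so counts were not treated as independent molecules and floors cover counting error only. The highest values, 46.2 and 46.3, involved the first resistant PC3 library.

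DESeq2 1.42.0 and limma 3.58.1 (on log2(FPKM + 1) and log2(FPKM + 0.1), genes with mean FPKM of 0.1 or more) were alternatives. Members, role lists and tests were chosen with earlier results of these data known. The text names the 8 largest called changes per direction without overlapping libraries in each resistance contrast, the 5 largest between parental lines and in the interaction, the most abundant and most changed member per role list, the 5 most abundant members, MYC, the ends of called stretches and the threshold's neighbours. Other names were chosen after their values were seen.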

Additional observations from a re-analysis of the deposited data

Results flagged for a closer look

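Changes that differed between the lines were flagged by edgeR's test of the difference itself. The change in PC3 exceeded that in DU145 for 148 members and was below it for 35. Of all genes tested, 22.1% were higher and 20% lower by the same test. For expressed genes of other chromosomes the shares were 39.3% and 29.1%. The largest differences of the log2 changes, PC3 minus DU145, in the upward direction were those of FAM83A (6.58 ± 0.26, SE, adjusted p 7.42e-09), RIMS2 (3.65 ± 0.30, 2.8e-07), CALB1 (3.38 ± 0.21, 3.22e-08), LRATD2 (3.10 ± 0.14, 2.05e-10) and LYN (2.66 ± 0.12, 1.08e-10). FAM83A, RIMS2 and LYN fell in DU145 and rose in PC3, LRATD2 fell in both but less in PC3, and CALB1 was called in PC3 alone. In the downward direction they were ZNF704 (-5.48 ± 0.14, 1.13e-13), ZFPM2 (-3.66 ± 0.23, 3.11e-09) and FBXO32 (-3.49 ± 0.29, 2.47e-07), which rose in DU145 and fell in PC3. TSNARE1 (-11.20) and CA2 (-7.19) were also flagged. Each had 1 group with no counts, so these fitted values depend on the prior count and are not bounds.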

How the results depend on the processing

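The median of the members stayed below 0 in DU145 in every alternative run: -0.45 with limma on log2(FPKM + 1), -0.48 at a mean of 1 FPKM or more, -0.55 at 5 FPKM or more, -0.54 for members at the threshold in all 4 groups, and -0.52 to -0.48 without 1 library. In PC3 it stayed near 0: -0.006 with either limma pseudocount, 0.016 without the filter on low counts, 0.066 at 5 FPKM, 0.065 in all 4 groups, and 0.010 to 0.053 without 1 library. The median between the parental lines was 0.061 and 0.054 with limma (pseudocounts 0.1 and 1) and 0.078 to 0.125 without 1 library. For the interaction it was 0.44 with limma on log2(FPKM + 1), 0.49 without the filter, 0.53 with the replicate block, 0.58 at 5 FPKM, 0.575 for members overlapping no other gene, 0.56 in all 4 groups, and 0.51 to 0.55 without 1 library. The per-library DU145 level was -0.39 on log2(FPKM + 1).

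Lowest and highest running medians over 9 members were -0.89 and -0.076 in DU145, -0.79 and 0.71 in PC3, and -3.27 and 1.33 between the parental lines. Over 25 members they were -0.82 and -0.31, -0.47 and 0.415, and -2.37 and 1.02. Over members overlapping no other gene they were -0.73 and -0.079, -0.26 and 0.44, and -2.32 and 0.71.

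The interaction of CA2 turned to 0.24 with limma on log2(FPKM + 1), adjusted p 0.105, since the pseudocount exceeds its PC3 level. Deviations of libraries from their group means correlated at -0.02 to 0.02 whether or not replicate numbers matched. This gave no sign that the numbers pair the samples, but it cannot show how the samples were prepared. The replicate block changed no call of a named member other than LY6K in PC3. LY6K ranged from 0.00 to 2.32 CPM over the parental PC3 libraries, and C8orf88 lay below 1 CPM in PC3. DU145 and PC3 each have 1 resistant subline, so subline and resistance cannot be told apart.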
